A study of Mus musculus with 2 samples.

Results

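The 10 genes described here are tuft cell regulators and taste-signalling genes: Pou2f3, Avil, Trpm5, Dclk1, Lrmp, Il25, Gng13, Alox5, Rgs13 and Chat. They were chosen by gene symbol, and all 10 were found among the 32285 genes listed in the files. Their unique molecular identifiers (UMIs, each standing for 1 captured mRNA molecule) were counted in single thymic epithelial cells (TECs) of C57BL/6 mice. TECs were sorted as EpCAM+ CD45- TER119- cells, and 2 droplet libraries were made, each from the pooled TECs of 3 mice. One pool came from 7-week-old mice given 5.5 Gy of γ-rays and taken 15 days afterwards, the other from age-matched mice without irradiation, and the labels give an age of 9 weeks for both. With 1 library per condition there was no replicate check and no test between conditions, and differences between the mice of a pool cannot be seen.

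The deposit's labels and its file names disagree on which library is which. The library labelled radiation holds files named for the control, with 4937 barcodes, and the library labelled control holds files named for irradiation, with 7167 barcodes. Cells with more than 2000 and fewer than 7500 detected genes and under 15% mitochondrial UMIs were kept, which left 3233 cells of the former and 5070 of the latter. The former is called control and the latter irradiated throughout, after the file names and the cell numbers that the study gives for each condition after its filter. Every direction between the libraries reverses if the deposit's labels are right. The kept cells held 51586327 and 75542631 UMIs, with medians of 13412 and 13003.5 UMIs per cell. Of the barcodes, 17 occurred in both libraries, 5 of them kept in both, and 0 of these lay in the tuft-like cluster described below.

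Tuft cells are chemosensory epithelial cells of the gut, airway and thymic medulla. They detect compounds with a signalling chain first known from taste buds, in which receptors act through G proteins and phospholipase C to release calcium and open a cation channel. They answer with cytokine, lipid mediators and acetylcholine, and in the thymus they are 1 of the mimetic cell types of the medulla, where medullary TECs (mTECs) take on programmes of other tissues. The 10 genes cover the steps of this programme. Pou2f3 (chromosome 9, 43123939 to 43210369, minus strand, in GRCm38 with GENCODE M21) encodes the POU transcription factor that tuft cells require. Gng13 (chromosome 17, 25717171 to 25719406, plus strand) encodes a G protein γ subunit, and Rgs13 (chromosome 1, 144138654 to 144177372, minus strand) a regulator that ends G protein signalling. Trpm5 (chromosome 7, 143069153 to 143094642, minus strand) encodes the calcium-activated cation channel of taste transduction. Lrmp (chromosome 6, 145115653 to 145174934, plus strand) encodes a membrane protein of the endoplasmic reticulum. Avil (chromosome 10, 127000709 to 127020994, plus strand) encodes advillin, an actin-binding protein of the villin family. Dclk1 (chromosome 3, 55242364 to 55539068, plus strand) encodes a microtubule-associated kinase used as a tuft cell marker. The effector genes are Il25 (chromosome 14, 54932695 to 54935837, plus strand), a cytokine of type 2 responses, Alox5 (chromosome 6, 116410077 to 116461178, minus strand), the first enzyme of leukotriene synthesis, and Chat (chromosome 14, 32408203 to 32465989, minus strand), which makes acetylcholine. In this annotation Chat overlaps Slc18a3 on the same strand, and Avil, Trpm5, Dclk1, Lrmp, Gng13 and Chat each overlap a gene on the other strand, so reads of such partners may be mixed where counting could not separate them.

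POU factors bind an octamer, ATGCAAAT, and the proximal promoters were read for it, since several of the genes were found almost only in 1 cell cluster. Of the 10 genes, 7 were matched by symbol in a RefSeq table of promoter windows (GRCm38.p6), with 9 start sites in all. The 250 bases before each start were searched on both strands for ATGCAAAT and for its first 7 letters, ATGCAAA, which every ATGCAAAT also contains. The windows below are those of Avil, Trpm5 and Rgs13, the 3 genes of the table that had over 90% of their UMIs in the tuft-like cluster. They are written 5′ to 3′ on the gene's strand and capitals mark matches to ATGCAAA on either strand.
Avil, chr10:127000459-127000708, plus strand: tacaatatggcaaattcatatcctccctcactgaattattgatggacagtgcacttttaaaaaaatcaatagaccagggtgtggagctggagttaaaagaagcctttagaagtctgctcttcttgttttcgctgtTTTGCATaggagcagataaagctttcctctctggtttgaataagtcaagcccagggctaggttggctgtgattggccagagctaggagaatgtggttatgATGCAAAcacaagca
Trpm5, chr7:143094643-143094892, minus strand: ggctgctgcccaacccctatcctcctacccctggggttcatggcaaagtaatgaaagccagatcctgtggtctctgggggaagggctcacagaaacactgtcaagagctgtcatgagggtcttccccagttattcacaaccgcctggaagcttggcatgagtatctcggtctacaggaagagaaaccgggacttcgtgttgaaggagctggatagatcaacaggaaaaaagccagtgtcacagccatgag
Rgs13, chr1:144177373-144177622, minus strand: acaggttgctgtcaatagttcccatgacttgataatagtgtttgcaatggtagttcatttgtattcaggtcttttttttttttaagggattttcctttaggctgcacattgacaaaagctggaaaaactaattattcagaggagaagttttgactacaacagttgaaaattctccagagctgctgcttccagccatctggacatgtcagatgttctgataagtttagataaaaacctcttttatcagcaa
Avil held 2 matches to ATGCAAA, whose first letters lay 115 and 15 bases before the start, the former on the opposite strand. No other window of the 7 genes held one, and 0 of the 9 windows held ATGCAAAT. Of 32851 such windows in the table, 4.12% held ATGCAAA at least once, 0.247% held it at least 2 times and 1.60% held ATGCAAAT. A match is a description of the letters and not a binding site.

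The cells were grouped with the 10 genes left out of the clustering, so that their levels did not form the groups. Of 14 clusters, R9 was named tuft-like from 16 markers that do not include the 10 genes. Of these markers, 3 were among the 10 leading genes of R9. All 16 were detected in R9, but also in the unnamed R0, where 0 were among the 10 leading genes. The leading genes of R9 outside the 10 were Gnat3 (the α subunit of taste G proteins), A630073D07Rik, Tas2r117 (a bitter taste receptor), Gm4952, Alox5ap (the partner of the Alox5 enzyme), Ly6g6f and Sh2d7. R9 held 301 cells. Among markers of other cells that the sort could have let through, Ptcra, Itgax, Fcer1a, Cpa3, Tpsb2 and Cdh5 had no UMI in these cells, and a Cd3e or Cd3d UMI was found in 2 cells. Those without a UMI were 1 of 7 thymocyte, 1 of 5 other leukocyte, 3 of 4 mast cell, 0 of 3 fibroblast and 1 of 2 endothelial markers. Per 10000 UMIs of control and irradiated tuft-like cells, the thymocyte list summed to 0.0346 and 0.0345, against 0.522 and 0.716 outside them. The other leukocyte list summed to 24.2 and 22.7, against 174 and 164, and the fibroblast list to 0.415 and 0.178, against 3.02 and 1.65. The other leukocyte list (Ptprc, Lyz2, Cd74, Cd79a and Itgax) holds Cd74, a gene of MHC class II presentation. Mature mTECs also express MHC class II highly, so the sum of that list is not a measure of leukocytes alone. Kit, the other of the 4 mast cell markers, was higher in tuft-like cells, at 1.81 and 1.53 UMIs per 10000 in the control and irradiated library, than outside them, at 0.203 and 0.152. Ptprc, which encodes CD45, had a UMI in 107 of the 301 cells, although CD45-positive cells were excluded by the sort. Other clusters used below are R7 (cTEC-like, 509 cells), R10 (keratinocyte-like, 179 cells), R3 (microfold- or enterocyte-like, 918 cells), R5 and R6 (TA-mTEC-like, 791 and 658 cells) and the unnamed clusters R0 (1371 cells, high in Aire and led by S100a9 and S100a8), R8 (404 cells, high in Aire), R1 and R2 (1161 and 1004 cells, high in Ccl21a) and R11 (147 cells, led by thymocyte genes such as Rhoh and Rag1). Aire was at 11.5 UMIs per 10000 in R0 and 11.3 in R8, and also at 5.61 in R6, 4.33 in R3 and 2.30 in R5. The name of R3 rests on 3 markers among its 10 leading genes, and 529 of its 918 cells had at least 2 Aire UMIs. It describes the leading genes of the cluster and not each cell.

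All 10 genes had their highest level in the tuft-like cluster. Levels are UMIs of the gene per 10000 UMIs of the cells, over both libraries, with exact Poisson 95% intervals that cover counting error only. They compare 1 gene between clusters and are not a ranking of genes. Pou2f3 stood out least from the rest, at 2.33 (2.19 to 2.49) in the tuft-like cluster and 0.633 (0.537 to 0.741) in the keratinocyte-like R10, a ratio of 3.69. Dclk1 came next with 15.1 (14.7 to 15.4) against 0.965 (0.906 to 1.03) in the Ccl21a-high R2, a ratio of 15.6.

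The genes of the taste chain were more unequal. Trpm5 was at 6.93 (6.68 to 7.19) against 0.0986 (0.0632 to 0.147) in R10, and Rgs13 at 15.1 (14.7 to 15.5) against 0.107 (0.0698 to 0.157) in R10, which was the largest ratio of the 10, 141. Gng13 was at 8.58 (8.29 to 8.86) against 0.353 (0.322 to 0.386) in R3, a ratio of 24.3. Lrmp and the structural gene Avil belonged with the more restricted genes: Lrmp was at 31.4 (30.9 to 32.0) against 0.572 (0.499 to 0.652) in R11, and Avil at 19.4 (18.9 to 19.8) against 0.255 (0.195 to 0.327) in R10.

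Among the effector genes, Il25 was at 2.51 (2.36 to 2.67) against 0.0575 (0.0314 to 0.0965) in R10. Alox5 was at 5.67 (5.45 to 5.91) against 0.165 (0.142 to 0.189) in R1 and 0.149 (0.127 to 0.175) in R2. Chat was at 2.70 (2.54 to 2.86) against 0.0511 (0.0425 to 0.0608) in R0 and 0.0411 (0.0197 to 0.0755) in R10. The intervals of the tuft-like and the next cluster did not overlap for any of the 10, while for Alox5, Rgs13 and Chat the next 2 clusters could not be ordered within counting error. How many of all genes clear the next cluster in this way is not given here. The keratinocyte-like R10 was the next cluster for Pou2f3, Avil, Trpm5, Rgs13 and, leaving aside clusters with under 20 cells in a library, Il25. Apart from Pou2f3, these R10 levels rested on few cells. Of its 179 cells, Pou2f3 was found in 62, Avil in 12, Rgs13 in 11, Trpm5 in 9 and Il25 in 4. The 10 R10 cells with most UMIs of the gene held 60 of 62 Avil and 25 of 26 Rgs13 UMIs, and 1 cell held 10 of 14 Il25 UMIs.

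**Figure D1:**
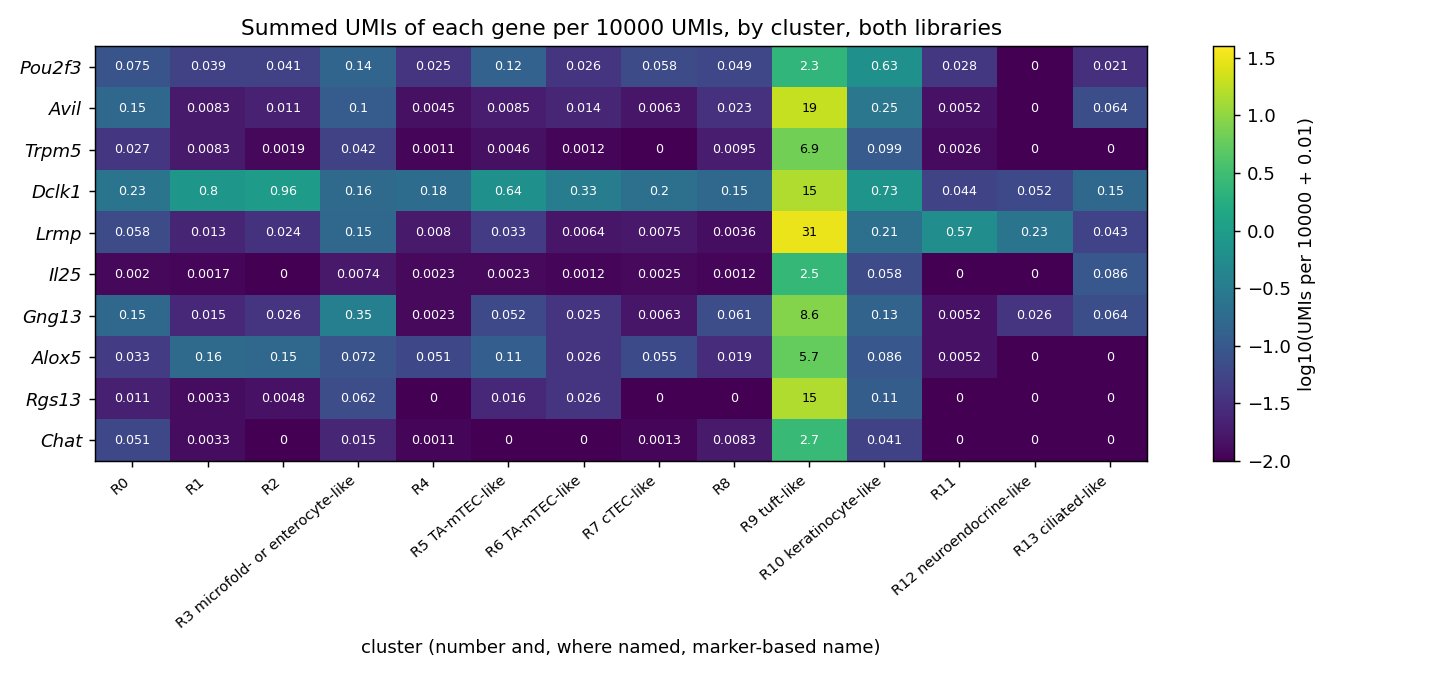
Heat map of the level of each of the 10 genes (rows; UMIs per 10000 printed in each field, colour on a log10 scale) in each of the 14 clusters (columns), both libraries together. The tuft-like cluster is the highest for every gene, by a ratio to the next cluster of 3.69 for Pou2f3 and 141 for Rgs13.

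The same contrast was read from where each gene's UMIs lay. The tuft-like cluster held 3.19% of all UMIs in kept cells. It held 96.7% of those of Rgs13, 95.8% of Il25, 94.5% of Lrmp, 94.1% of Trpm5 and 92.2% of Avil. Among 16986 genes with at least 100 UMIs, these 5 ranked between 6 and 18 by that share. Chat had 86.6%, Gng13 75.8% and Alox5 73.1% of their UMIs there (ranks 31, 50 and 55). Dclk1 had 55.9% and Pou2f3 50.1% (ranks 105 and 127), so that about as many Pou2f3 UMIs lay outside the tuft-like cluster as inside it.

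Shares of cells with a UMI were compared at equal depth, with each cell thinned at random to 4000 UMIs (0 control and 5 irradiated cells were shallower and left out). In tuft-like cells of the control and the irradiated library, Lrmp was found in 98.1% and 98.6%, Avil in 97.4% and 98.6%, and Rgs13 in 93.5% and 94.6%. Pou2f3 was found in 59.7% and 64.6% and Il25 in 48.7% (40.6 to 56.9) and 38.8% (30.9 to 47.2). Alox5 was found in 76.0% (68.4 to 82.5) of control and 91.2% (85.4 to 95.2) of irradiated tuft-like cells, without overlap of the intervals. Such overlap was not counted over all genes. The cTEC-like cluster served as the background, as cTECs should lack these genes; its median depth was 15109 and 13997 UMIs, against 13421.5 and 10484 in the tuft-like cluster. There, Dclk1 was found in 4.64% and 8.94% of cells, Alox5 in 3.31% and 3.35%, and Pou2f3 in 0.662% and 1.96%. Trpm5, Lrmp, Il25, Rgs13 and Chat were found in 0 of 151 control and 0 of 358 irradiated cTEC-like cells, which allows shares of up to 1.99% and 0.838%.

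Outside the tuft-like cluster the genes fell into widespread and concentrated ones. Dclk1 was widespread: 4810 UMIs lay in 2455 cells, 30.7% of those outside, and the 10 cells with most UMIs held 3.72% of them. Rgs13 was concentrated, with 210 UMIs in 77 cells and 58.6% of them in 10 cells. Lrmp in R11, the cluster led by thymocyte genes, was found in 85 of 147 cells. Pou2f3 in the keratinocyte-like R10 was found in 62 of 179 cells, 34.6%. After thinning, Pou2f3 was found in 21.1% (13.2 to 31.0, exact Clopper-Pearson 95% interval) of control and 18.0% (10.6 to 27.5) of irradiated R10 cells, far above the cTEC-like background.

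Over all kept cells, every one of the 10 genes was lower in the irradiated library. Each value is given with the log2 ratio of irradiated to control (0.5 UMIs added to each sum) and a range from the opposite ends of both Poisson intervals. Il25 differed most, with 0.139 UMIs per 10000 for control TECs, 0.0458 for irradiated TECs and a log2 ratio of -1.60 (-1.87 to -1.34). Rgs13 was at 0.710 and 0.352 (-1.01, -1.11 to -0.91), Trpm5 at 0.319 and 0.177 (-0.85) and Lrmp at 1.42 and 0.816 (-0.80, -0.87 to -0.73). Avil was at 0.884 and 0.523, Pou2f3 at 0.189 and 0.121 and Chat at 0.125 and 0.0815. The smallest differences were those of Dclk1, 1.02 and 0.748 (-0.45, -0.52 to -0.37), Gng13, 0.431 and 0.313 (-0.46), and Alox5, 0.302 and 0.210 (-0.52). Thus 7 of the 10 were past a fold of 1.5 lower, beside 13.4% of the 20969 genes with at least 20 UMIs, and 0 were past it higher, beside 3.67%. With the mean over cells in place of the sum, 3 of the 10 (Trpm5, Il25 and Rgs13) were past it. The median log2 ratio was -0.70 over the 10 genes and -0.07 over all genes tested.

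The number of tuft-like cells differed in the same direction. The tuft-like cluster held 154 of 3233 control cells, 4.76% (4.05 to 5.56, exact Clopper-Pearson 95% interval), and 147 of 5070 irradiated cells, 2.90% (2.45 to 3.40). Expressed as log2, the irradiated share relative to the control share was -0.72. In the sum over all kept cells, fewer tuft-like cells and less RNA per cell cannot be told apart, and the levels within the cluster are therefore given next.

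**Figure D2:**
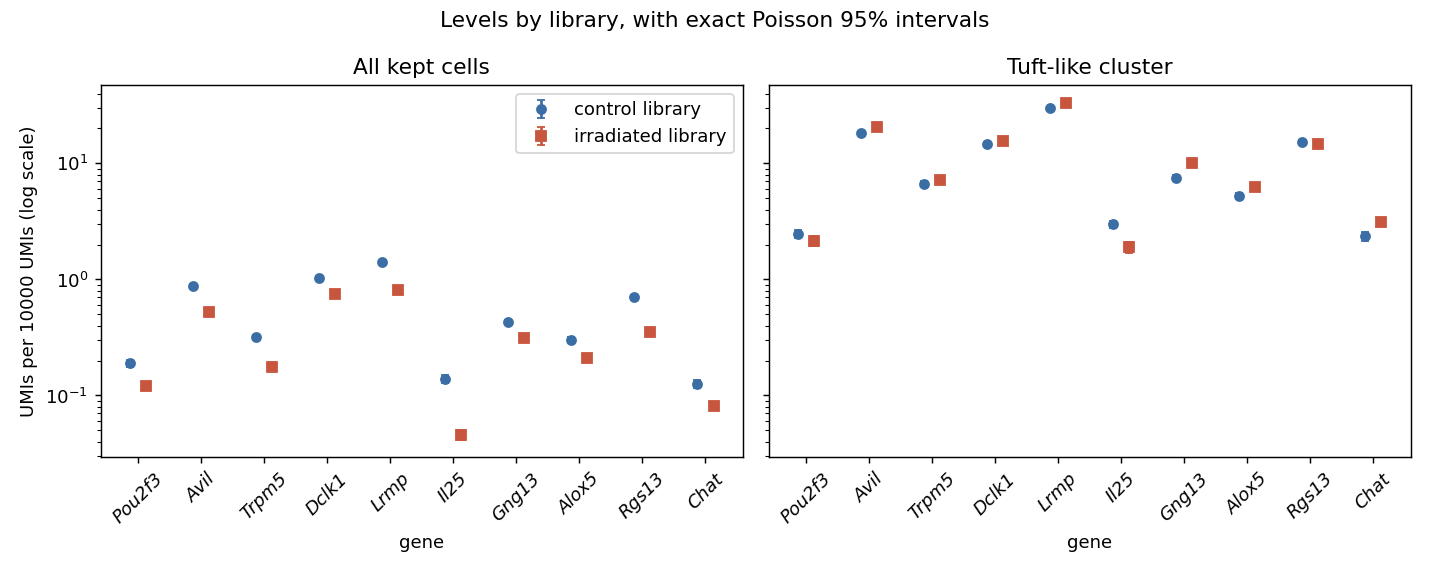
Level of each of the 10 genes (UMIs per 10000, log scale) in the control library (circles) and the irradiated library (squares), over all kept cells on the left and in the tuft-like cluster on the right, with exact Poisson 95% intervals. The irradiated value is the lower one for all 10 genes on the left and, on the right, for Pou2f3, Il25 and Rgs13.

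Within the tuft-like cluster the 10 genes did not share a direction. Summed over the 10, the level was 105.9 UMIs per 10000 for control tuft-like cells and 114.6 for irradiated ones, a log2 ratio of 0.11 (0.08 to 0.15), against -0.71 (-0.74 to -0.67) over all kept cells. Il25 was the 1 gene of the 10 past a fold of 1.5 lower, a share near the 9.11% of the 10990 genes tested there. Past it higher were 0, beside 5.73%. Gng13 was at 7.51 and 9.99 (0.41, 0.27 to 0.55) and Chat at 2.36 and 3.14 (0.41, 0.17 to 0.66), both higher in irradiated cells beyond counting error. Alox5 was at 5.23 and 6.27 (0.26, 0.10 to 0.43), Avil at 18.4 and 20.6 (0.16, 0.07 to 0.25) and Lrmp at 30.2 and 33.1 (0.13, 0.06 to 0.20). The ranges of the other 4 genes included 0: Pou2f3 at 2.47 and 2.15 (-0.20, -0.47 to 0.06), Trpm5 at 6.71 and 7.22 (0.11, -0.05 to 0.26), Dclk1 at 14.6 and 15.6 (0.09, -0.01 to 0.19) and Rgs13 at 15.4 and 14.7 (-0.06, -0.17 to 0.04). How many of all genes had a range without 0 is not given here, so these ranges describe single genes only. Irradiated tuft-like cells were shallower, with a median of 10484 UMIs against 13421.5, and the part of depth in the differences between the libraries was not tested.

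Il25 was examined cell by cell, because it was the 1 gene that differed past a fold of 1.5 within tuft-like cells. Its level was 2.98 UMIs per 10000 for control tuft-like cells and 1.89 for irradiated ones, a log2 ratio of -0.66 (-0.93 to -0.39). The medians over cells were close, 1.34 and 1.24 per 10000, and 44 of 154 control and 43 of 147 irradiated cells had no Il25 UMI. Cells with much Il25 were more numerous in control, where 14 cells reached 10 per 10000 against 4 irradiated ones, and the 10 cells with most UMIs held 41.9% and 37.7% of the gene's UMIs. The highest single cell was an irradiated one, at 53.2 per 10000, against 20.7 in control. Without the 10 cells of each library with the most Il25 UMIs, the log2 ratio was -0.57 (-0.92 to -0.23), short of a fold of 1.5. The call was also lost without the 5% of cells with most UMIs (-0.56) and with the mean over cells (-0.44).

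For the other genes the distributions over cells overlapped broadly. Gng13 ran from 0 to 28.4 per 10000 with a median of 7.12 in control cells, and from 0 to 35.3 with a median of 10.0 in irradiated cells. Chat had medians of 2.08 and 2.71, Avil of 18.7 and 21.9, and Dclk1 of 12.8 and 14.8. Without a Dclk1 UMI were 17 control and 5 irradiated cells. Rgs13 had medians of 14.4 and 15.3, whose order is the opposite of that of the summed levels.

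**Figure D3:**
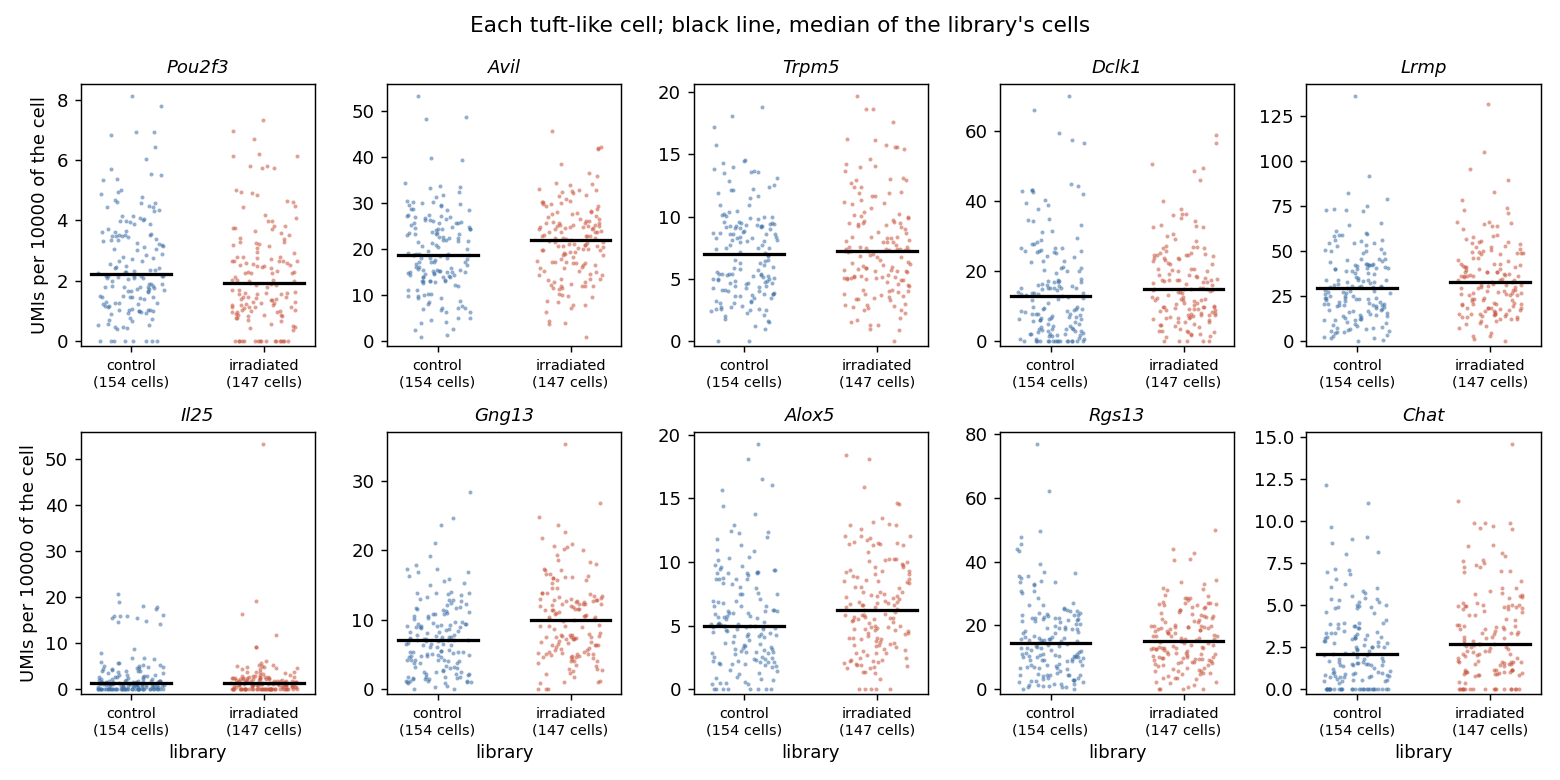
Level of each gene (UMIs per 10000) in single tuft-like cells of the control (154 cells) and the irradiated library (147 cells), each point a cell and each line a median. The distributions overlap for every gene, with medians of 7.12 and 10.0 for Gng13 and of 1.34 and 1.24 for Il25.

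In the cells outside the tuft-like cluster, 4 of the 10 genes were past a fold of 1.5 lower in the irradiated library, beside 13.1% of 20861 genes, and 0 were past it higher, beside 3.53%. These were Il25 (log2 ratio -1.29, on 28 control and 17 irradiated UMIs), Chat (-1.11, -1.76 to -0.48, on 100 and 69), Trpm5 (-0.79, on 95 and 82) and Rgs13 (-0.69, on 109 and 101). Single cells carried part of these sums, 10 of the 28 control Il25 UMIs and 38 of the 101 irradiated Rgs13 UMIs. Without the cell of each library with the most UMIs of the gene, the ratios were -0.93 for Il25, with a range that included 0 (-2.48 to 0.56), -1.06 for Chat, -0.76 for Trpm5 and -0.98 for Rgs13. These ratios still rested on few cells. The 10 cells with most UMIs held 82 of 109 control and 70 of 101 irradiated Rgs13 UMIs, and 61 of 100 and 38 of 69 Chat UMIs. For Trpm5 they held 49 of 95 and 39 of 82, and for Il25 23 of 28 and 13 of 17. Ratios without these 10 cells were not computed. Dclk1 was at 0.381 and 0.398 UMIs per 10000 outside the tuft-like cluster. For the less restricted genes a smaller share of UMIs lay in the tuft-like cluster in irradiated TECs, 40.9% against 58.7% for Pou2f3 and 48.1% against 64.4% for Dclk1. For all 10 genes together it was 85.7% in control and 78.0% in irradiated TECs.

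Single tuft-like cells carried most of the programme at once. Each of the 301 cells had a UMI of at least 5 of the 10 genes, 288 had at least 8, and 158 had all 10, of which 79 came from each library. After thinning to 4000 UMIs the median was 8 genes. Avil was found in every tuft-like cell, Lrmp was missing from 2, Trpm5 from 3, Gng13 from 5, Rgs13 from 6 and Alox5 from 13. Dclk1 was missing from 22, Pou2f3 from 25, Chat from 48 and Il25 from 87. A missing UMI in a single cell is not absence of the gene's RNA.

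The tuft-like cells divided into 4 subclusters, again formed without the 10 genes. S0 held 74 control and 75 irradiated cells (leading genes Cldn10, Ptprc, C2 and Folr1), S1 held 35 and 17 (Scn2a and Rgs21), S2 held 25 and 27 (Acta2, Mmp9 and Tagln) and S3 held 20 and 28 (Prkag3 and Tceal3). Dclk1 differed most between them, at 22.8 UMIs per 10000 in S0, 10.1 in S2, 14.9 in S3 and 3.15 in S1, and 18 of the 22 tuft-like cells without a Dclk1 UMI were in S1. Rgs13 was likewise high in S0 and S3, 20.6 and 18.4, and low in S1, 6.14. Alox5 was at 7.28 and 7.26 in S0 and S3 and at 3.10 and 3.58 in S1 and S2, and Chat at 3.46 and 3.87 against 1.37 and 1.47.

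Il25, Pou2f3 and Gng13 followed another order, in which S1 was not low. Il25 was at 2.62 in S0, 2.96 in S1, 1.36 in S2 and 3.34 in S3. Pou2f3 was at 2.44, 2.96, 1.39 and 2.68, and Gng13 at 9.19, 9.35, 4.34 and 12.0. S1 was thus low in Dclk1, Rgs13, Alox5 and Chat but not in Il25, Pou2f3 or Gng13. Of genes outside the 10, Gnat3 was high in S1 and S3, 18.8 and 16.9, against 3.22 in S0, while Ptgs1, which makes prostaglandin precursors, was low in S1, 1.44, against 6.47 in S0.

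S2 had the lowest level of 6 of the genes, Pou2f3, Avil, Trpm5, Lrmp, Il25 and Gng13. Avil was at 11.7 in S2 against 15.6 to 24.6 in the other subclusters, and Lrmp at 17.8 against 29.7 to 44.0. S2 cells had a median of 19245.5 UMIs against 9993 in S0, and Ccl21a at 37.9 UMIs per 10000. The part of cells captured together in these levels was not tested. Without S2, the tuft-like share was 3.99% in control and 2.37% in irradiated TECs (log2 ratio -0.75), the summed level differed by 0.10 and that of Il25 by -0.77.

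**Figure D4:**
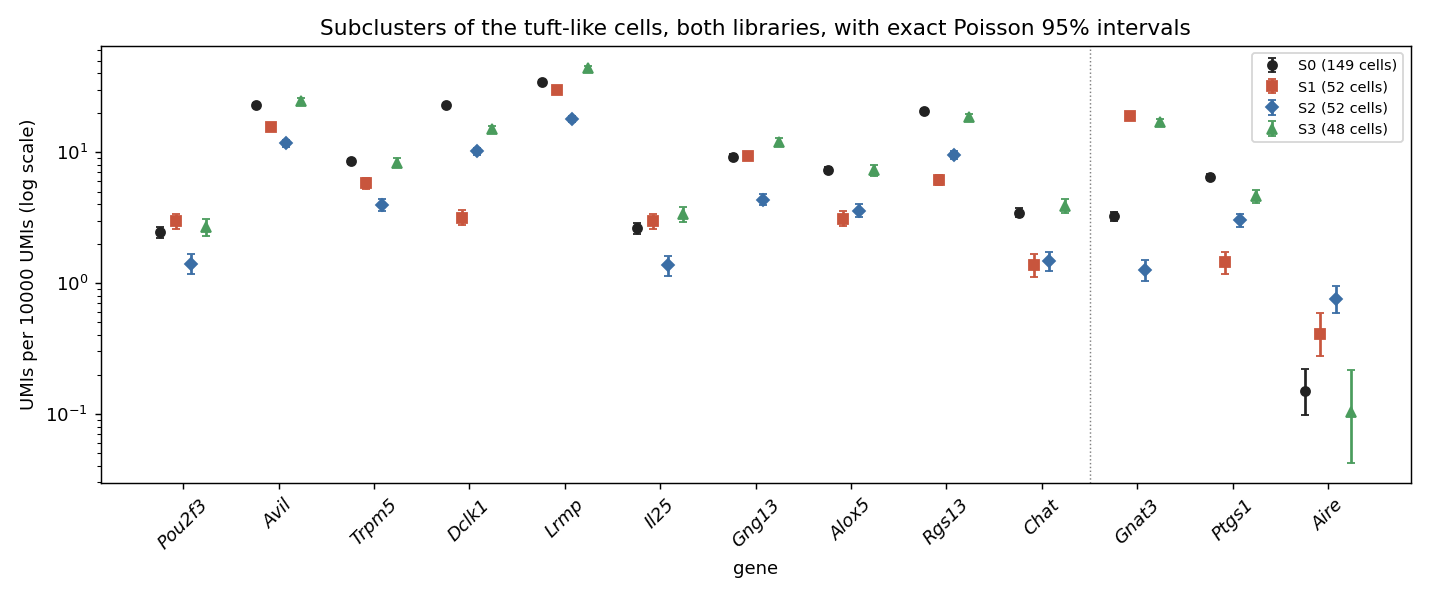
Levels of the 10 genes and of Gnat3, Ptgs1 and Aire (UMIs per 10000, log scale) in the 4 subclusters of tuft-like cells, both libraries together, with exact Poisson 95% intervals. Dclk1 is at 3.15 in S1 against 22.8 in S0, whereas Il25 is at 2.96 and 2.62.

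The libraries were also compared within subclusters. Il25 was lower in irradiated cells in S0 (3.11 and 1.95, log2 ratio -0.67) and S3 (4.96 and 1.89, -1.39), whereas S1 (3.20 and 2.45, -0.38) and S2 (1.28 and 1.46) lay within counting error. Gng13 was higher in irradiated cells in S0, S2 and S3 by log2 ratios of 0.40, 0.57 and 0.45. The share of S1 among tuft-like cells was 22.7% (16.4 to 30.2) in control and 11.6% (6.88 to 17.9) in irradiated TECs, with overlapping intervals. In S1 Rgs13 was at 7.38 in control and 3.55 in irradiated cells (-1.05), from 35 and 17 cells.

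Aire, which encodes the regulator that lets mTECs transcribe tissue-restricted genes (chromosome 10, 78030022 to 78043610, minus strand), was low in tuft-like cells. Of the 301 cells, 259 had no Aire UMI, 30 had 1 and 12 had at least 2, 5 of the last from control and 7 from irradiated TECs. Those 12 cells had a median of 25736 UMIs, against 11541 in the cells without Aire, and lower levels of Il25 (0.745 against 2.52 UMIs per 10000), Avil (12.7 against 19.7), Lrmp (26.7 against 31.7) and Rgs13 (6.56 against 16.1). Their deeper counts accompany these levels, and the part of cells captured together was not tested.

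Aire-positive cells outside the tuft-like cluster were then searched for the 10 genes, where Aire-positive means at least 2 Aire UMIs after thinning. At least 2 of the 10 genes were found in 10 of 802 such control cells, 1.25% (0.600 to 2.28), and in 20 of 1392 irradiated cells, 1.44% (0.880 to 2.21). In the cTEC-like cluster the counts were 2 of 151 control cells, 1.32%, and 4 of 358 irradiated cells, 1.12%. Cells without Aire outside the tuft-like cluster had higher shares, 50 of 2028 control (2.47%) and 61 of 3111 irradiated cells (1.96%). Over the 9 genes without Dclk1, such shares were 0.623% and 0.934% of Aire-positive and 1.04% and 0.771% of cells without Aire. In the cTEC-like cluster they were 0 of 151 control and 1 of 358 irradiated cells (0.279%). Most cTEC-like carriers thus counted through Dclk1, but the intervals still overlapped those of Aire-positive cells. At least 5 of the 10 were found in 0 Aire-positive cells, which allows shares of up to 0.374% in control and 0.216% in irradiated TECs. They were found in 5 control (0.247%) and 4 irradiated (0.129%) cells without Aire, so the groups could not be told apart by this count. Without thinning, 4 cells with at least 2 Aire UMIs outside the tuft-like cluster held at least 5 of the genes. For at least 2 of the 10, the counting intervals of Aire-positive cells overlapped those of cTEC-like cells and of cells without Aire. Those of the libraries overlapped as well. Over 20 other random draws, the Aire-positive share was above the cTEC-like one in 13 for control (medians 1.44% and 1.32%) and in 18 for irradiated TECs (medians 1.41% and 0.838%), and within Aire-positive cells the control share was the higher one in 12. At least 1 of the genes was found in 17.5% and 18.1% of Aire-positive cells, against 7.28% and 13.4% of cTEC-like cells and 24.4% and 26.3% of the cells without Aire outside the tuft-like cluster, where Dclk1 was common. With Dclk1 left out, these shares were 11.5% and 13.1% of Aire-positive cells, 3.97% and 5.59% of cTEC-like cells and 9.86% and 9.32% of cells without Aire.

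Counted without thinning, some Aire-positive cells held 1 of the genes at a clear level. Dclk1 was left out of this count because it was widespread. Of 3046 cells with at least 2 Aire UMIs, 198 had at least 3 UMIs of 1 of the other 9 genes, 6.50% (5.65 to 7.43), against 5 of 509 cTEC-like cells, 0.982%. Counted over all cells whatever their Aire, cells with at least 3 UMIs of 1 of the 9 genes were 28 of 179 in R10 (15.6%) and 79 of 918 in R3 (8.61%). R3 overlaps the Aire-positive group, as 529 of its 918 cells had at least 2 Aire UMIs. Such cells were 325 of all 8002 cells outside the tuft-like cluster (4.06%). Of the 198, 20 had at least 3 UMIs of a second of the 9, 10.1% (6.28 to 15.2), whereas 300 of the 301 tuft-like cells did. This share was 21.4% (8.30 to 41.0) in R10 and 26.6% (17.3 to 37.7) in R3. Over all cells outside the tuft-like cluster it was 15.4% (11.6 to 19.8). Most of the 198 were in R0, where they were 135 of 1285 Aire-positive cells (10.5%), and 42 of 529 were in R3, while R6 had 3 of 499 and R8 11 of 400. The gene was Gng13 in 74 cells, Avil in 47, Pou2f3 in 43, Lrmp and Chat in 20 each, Trpm5 and Alox5 in 10 each, Rgs13 in 3 and Il25 in 1, counting a cell under each gene that reached 3. Median depths were 20151 and 17359 UMIs in thinned Aire-positive cells of the control and irradiated library and 15109 and 13997 in cTEC-like cells, which a count without thinning does not level.

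The mix of the 10 genes differed as well between these cells. The percentages are of all UMIs of the 10 genes within a group of cells, and only the same gene is compared across groups. Gng13 made up 7.82% in tuft-like cells, 23.4% in Aire-positive cells outside them and 1.84% in cTEC-like cells. Pou2f3 made up 2.13% in tuft-like, 10.4% in Aire-positive and 16.9% in cTEC-like cells, and Chat 2.46%, 5.25% and 0.368%. Lrmp and Rgs13 went the other way, Lrmp with 28.7% in tuft-like and 5.69% in Aire-positive cells, and Rgs13 with 13.8% and 1.17%. The Aire-positive cells therefore did not hold the genes in the proportions of tuft-like cells. Of the 169 Chat UMIs outside the tuft-like cluster, 126 lay in R0, in 47 cells, and 64 of the 126 in 10 cells.

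**Figure D5:**
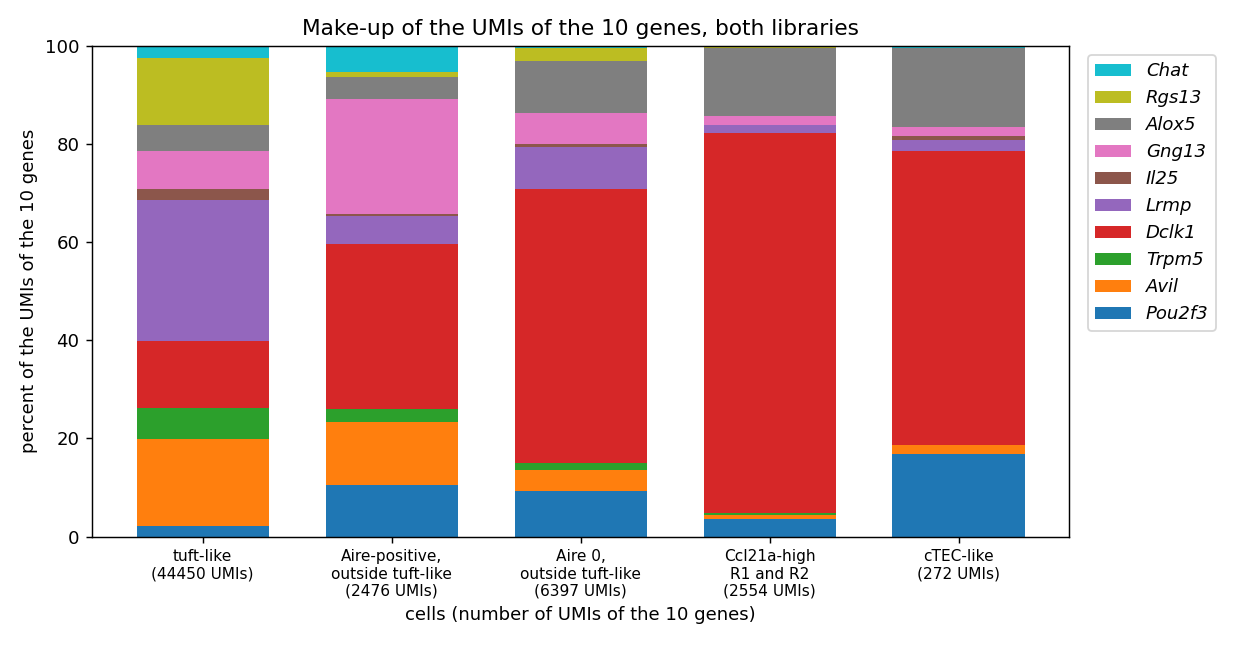
Stacked bars of the share of each gene in all UMIs of the 10 genes (percent) in tuft-like cells, Aire-positive cells and cells without Aire UMIs outside them, the Ccl21a-high R1 and R2, and cTEC-like cells. Gng13 makes up 23.4% in Aire-positive and 7.82% in tuft-like cells, and Rgs13 1.17% and 13.8%.

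A few cells outside the tuft-like cluster carried many of the genes. At least 5 of the 10 were found in 29 such cells, 14 control and 15 irradiated, of which 14 lay in the microfold- or enterocyte-like R3 and 9 in the keratinocyte-like R10. Their summed level of the 10 genes had a median of 19.8 UMIs per 10000, against 119 in tuft-like cells, and ran from 2.06 to 52.5. They had between 9113 and 30410 UMIs per cell, and 4 of them had at least 2 Aire UMIs. No doublets were removed beyond the upper limit of 7500 genes, and the part of doublets was not tested.

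Other genes of the pathway were counted from lists of taste, effector and regulatory genes. Of 16 taste transduction genes with enough UMIs over all kept cells, 10 were past a fold of 1.5 lower in irradiated TECs and 0 higher, beside 13.4% and 3.67% of all genes. Within the tuft-like cluster, 2 of 16 were past it lower, a share near the 9.11% of all genes there: Tas2r105, a bitter taste receptor, at 0.696 and 0.425 UMIs per 10000 (log2 ratio -0.71), and Sucnr1, a succinate receptor (-1.50). Gnat3 (-1.12), which encodes the taste G protein α subunit, and Plcb2 (-1.13), the phospholipase C of taste transduction, were among those lower over all kept cells.

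Of 14 eicosanoid and effector genes, 9 were past the fold lower over all kept cells, beside 13.4% of all genes, and 0 of the 10 tested in the tuft-like cluster, beside 9.11%. In the cells outside the tuft-like cluster 9 of the 14 were also past it lower and 0 higher, beside 13.1% and 3.53% of all genes. Their median log2 ratio was -0.93 there, against -0.062 over all genes tested. Of the taste and the regulator lists, 1 of 11 and 4 of 24 genes were past it lower there. Within the tuft-like cluster Alox5ap was at 14.3 in control and 19.7 in irradiated cells (0.46). Ltc4s, which makes leukotriene C, was at 8.16 and 9.63 (0.24). Neither passed a fold of 1.5. Of 24 regulators and structural genes, 7 were past the fold lower over all kept cells, beside 13.4% of all genes. In tuft-like cells 1 was past it lower, Nrep at 2.62 and 1.22 (-1.10), and 2 higher, among them the transcription factor Hmx2 (0.63), beside 9.11% and 5.73% of all genes, and the median over the list was 0.081.

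The genes most like the 10 in pattern were sought among 16986 genes, over 25 points (13 clusters, points of under 20 cells left out), by Pearson's r of log2(UMIs per 10000 + 0.01). The points share 2 libraries, and the values rest largely on the tuft-like points. The sum of the 10 genes was most like Mctp1 (r = 0.961), Ly6g6f (0.947), Bmx (0.942), Sh2d7 (0.938) and Gm4952 (0.937). For single genes, Trpm5 and Il25 were most like Ly6g6f (both 0.978), Pou2f3 and Rgs13 most like Bmx (0.927 and 0.972), Lrmp like Arhgap4 (0.967), Gng13 like Clec2g (0.959), Alox5 like Nav3 (0.930) and Dclk1 like Sox9 (0.902).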

How the data were processed

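Sorted TECs were processed with a 10x Genomics droplet kit (chemistry version 2 per the labels, version 3 per the methods) and aligned to mm10 with Cell Ranger, version 5.0.1 per the file headers and 5.1 per the submitters' processing notes. The authors deposited raw UMI counts per gene and barcode for each library, and these counts were used without normalization. Whether counting used strand is not given in the sources used here, and the protocol of the labels names an age of 4 weeks.

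Cells were kept by the limits on detected genes and mitochondrial UMIs given above, with genes found in at least 5 barcodes. Clusters were formed with Seurat 5.3.0 in R 4.3.3 after anchor integration, with 3000 variable genes, 2000 anchor features, 20 components and resolution 0.5, and without the 10 genes. Clusters were named from marker lists of TEC types. A cluster without a marker of these lists among its 10 leading genes was left unnamed and kept its number. UMIs were summed per cluster and library with Python 3.11.15 (numpy 2.4.6, scipy 1.17.1, pandas 2.3.3). Sums carry exact Poisson and shares exact Clopper-Pearson 95% intervals, which cover counting error only, and a count of 0 allows 3. Genes were tested against a fold of 1.5 where both libraries together held at least 20 UMIs. The script was tested on simulated data. Genes named are the 10, Aire, genes of the lists, genes leading a cluster or subcluster, and those most alike in pattern. Pou2af2, Pou2af3 and Gm34548 of the regulator list were not analysed here. The 10 genes and the lists were chosen with earlier results of these data known. Some genes that the rule would name are not reported here.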

Additional observations from a re-analysis of the deposited data

Results flagged for a closer look

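The barcodes left out by the limits on detected genes and mitochondrial UMIs, which the comparisons of the report did not use (an alternative with a lower limit of 1000 genes took in some), also held cells with several of the 10 genes. At least 5 of the genes were found in 46 of the 1704 control barcodes left out, 2.70% (1.98 to 3.58), and in 34 of the 2097 irradiated ones, 1.62% (1.13 to 2.26). Of these, 33 and 18 had 2000 or fewer detected genes. Over all barcodes, kept or not, 4.33% (3.78 to 4.94) of control and 2.73% (2.37 to 3.14) of irradiated ones had at least 5 of the genes.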

How the results depend on the processing

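No log2 ratio beyond counting error reversed under any alternative run, and a reversal was not defined for percentages. Of the values that answer a comparison, 81 moved by less than their counting error and 15 by more. They include the shares of Aire-positive cells under 29 alternatives for each library, of which 20 were other random draws. The log2 ratio of the tuft-like share ran from -0.75 to -0.66 over 8 alternatives. With a limit of 10% mitochondrial UMIs the tuft-like cluster held 231 cells, the summed level within it differed by 0.056, and it held 83.2% and 75.6% of the 10 genes' UMIs in control and irradiated TECs. With a lower limit of 1000 genes the control share was 85.2%, and without the 5% of cells with most UMIs the irradiated one was 79.3%. The mean over cells gave -0.51 for the sum over all kept cells and ended the call of Pou2f3, Avil, Lrmp and Chat there, and leaving out the 5% of cells with most UMIs ended that of Chat. Aire-positive cells with at least 1 gene were 17.5% and 18.1%, with at least 3 genes 0.249% and 0.144%, and without thinning 11.7% and 10.5% (cTEC-like cells without thinning 5.96% and 5.87%). Chosen after seeing the data were 20 other random draws, which ran from 0.991% to 2.41% in control and from 0.788% to 1.87% in irradiated cells, tuft-like cells without those with at least 2 Aire UMIs, whose summed level differed by 0.16, and leaving out S2, the 10 cells with most UMIs or, outside the tuft-like cluster, the 1 cell with most. Within the tuft-like cluster Il25 ran from -0.81 to -0.44, its call ending under 3, and Gng13 from 0.34 to 0.44 over 12 alternatives, while Rgs13 ran from -0.14 to 0.0041. No paired analysis was possible because each condition had 1 library. Depth limits single cells most, where Il25 and Pou2f3 had few UMIs.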
